A study of Mus musculus with 12 samples.

Results

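Genes of the interferon response and of antigen presentation were followed in ventricles of mouse embryos that lacked Hdac2, Hopx or both. The group is a list of 36 named genes. Of these, 34 had a probe set for 1 gene, out of 18193 genes measured. Isg15 appeared on a probe set of several genes and was left out, and Ifi44 had no named probe set. Where a gene had several probe sets, the one with the highest mean log2 signal was used. Signals under a floor of 82.5 units, taken from the arrays' mean signal, were raised to it. By that rule 22 of the 34 genes were above the floor on at least 1 array and were tested, and the other 12 were below it on all 12 arrays.

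RNA was taken from cardiac ventricles at embryonic day 16.5, with 3 biological replicates of each genotype, 1 array each. The genotypes were wild type, Hdac2-null (no histone deacetylase 2, an enzyme that removes acetyl groups from histones), Hopx-null (no Hopx, a cardiac homeobox protein that acts through partners without contacting DNA itself) and Hdac2-Hopx double-null. The alleles, the strain, and whether the loss was germline or limited to some cells are not given in the sources used here. No treatment, infection or interferon dose is named in the labels. Hdac2 signal was between 4442 and 5683 units on the 6 arrays with the gene and at most 4.32 units on the 6 without it. Hopx signal was between 8577 and 12240 units with the gene and between 1656 and 2066 units without it. All 10 cardiomyocyte markers on the list used were above the floor, and their median deviation on any array was within 0.03 of the mean on the log2 scale. Of these, Myh6, Myh7, Tnnt2, Actc1, Myl2 and Myl3 read between 32864 and 42920 units, near the highest signal of any probe set, 44616 units. Whether differences are compressed at that level was not tested, so their small deviation is a weak measure of how alike the arrays were. Depth has no meaning for arrays, and the 3 arrays per genotype limit the precision.

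Type I interferons bind a receptor at the cell surface and activate the complex ISGF3, which holds Irf9 and Stat2 and binds the interferon-stimulated response element (ISRE) in front of interferon-stimulated genes. Interferon gamma acts through the gamma-activated site (GAS), and raises Irf1, the guanylate-binding proteins and the genes that load peptide onto MHC class I. Many of these genes keep a low level of expression in uninfected tissue.

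The 150 bases in front of the start of 8 listed genes show the sequence side of this group. RefSeq promoters (250 bases before the start to 50 after, build GRCm38.p6) were found for 29 of the 36 listed genes. An ISRE core, searched on both strands as GAAA, then any 2 bases, then GAAA, lay in 13 of these 29 promoters, or 44.8%. Over all 27025 genes with a promoter the share was 3.99%. A GAS core, searched as TTCNNNGAA, which reads the same on both strands, lay in 8 of 29, or 27.6%, against 9.55% of all such genes. In Bst2 a GAS core overlaps the ISRE core. Capitals mark the ISRE core in Gbp3, Bst2, Rsad2, B2m and Ifit1, and the GAS core in Irf1, which is 1 place read from either strand. Lgals3bp and Oasl2 are shown because Lgals3bp was among the genes with the widest spread and Oasl2 had the smallest unadjusted p for the loss of Hdac2, and neither motif's letters were in the stretch. A match is a description of the letters and was not tested for binding here. Each stretch is written 5′ to 3′ on the gene's own strand.
Gbp3, chr3:142559894-142560043, plus strand: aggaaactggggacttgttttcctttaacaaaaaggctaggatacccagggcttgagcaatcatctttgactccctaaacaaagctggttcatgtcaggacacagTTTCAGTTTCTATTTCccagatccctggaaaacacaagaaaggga
Bst2, chr8:71537473-71537622, minus strand: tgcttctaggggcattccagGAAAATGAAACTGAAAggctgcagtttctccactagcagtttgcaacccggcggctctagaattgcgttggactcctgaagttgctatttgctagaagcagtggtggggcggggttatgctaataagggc
Rsad2, chr12:26456453-26456602, minus strand: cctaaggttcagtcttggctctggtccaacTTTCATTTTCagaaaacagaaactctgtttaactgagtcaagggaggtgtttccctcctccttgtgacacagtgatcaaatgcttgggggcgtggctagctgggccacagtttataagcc
B2m, chr2:122147537-122147686, plus strand: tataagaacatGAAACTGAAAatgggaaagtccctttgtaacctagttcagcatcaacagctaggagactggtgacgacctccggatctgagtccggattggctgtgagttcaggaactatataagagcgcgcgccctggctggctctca
Ifit1, chr19:34640739-34640888, plus strand: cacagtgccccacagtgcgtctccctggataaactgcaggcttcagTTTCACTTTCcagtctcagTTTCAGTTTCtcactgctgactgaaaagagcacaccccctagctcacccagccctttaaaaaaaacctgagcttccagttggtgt
Irf1, chr11:53769864-53770013, plus strand: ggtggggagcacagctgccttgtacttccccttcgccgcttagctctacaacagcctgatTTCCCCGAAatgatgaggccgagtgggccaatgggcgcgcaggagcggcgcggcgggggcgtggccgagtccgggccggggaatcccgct
Lgals3bp, chr11:118401960-118402109, minus strand: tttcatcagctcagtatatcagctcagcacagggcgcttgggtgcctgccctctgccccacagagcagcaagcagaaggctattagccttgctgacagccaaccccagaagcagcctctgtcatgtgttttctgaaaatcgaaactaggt
Oasl2, chr5:114896784-114896933, plus strand: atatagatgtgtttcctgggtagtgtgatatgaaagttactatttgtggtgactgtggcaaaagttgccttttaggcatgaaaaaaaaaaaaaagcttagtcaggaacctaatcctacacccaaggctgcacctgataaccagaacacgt

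None of the 22 tested genes passed an adjusted p of 0.05 in any comparison of genotypes (limma, Benjamini-Hochberg over 9667 genes). In these comparisons few genes of any kind were called. The share of all tested genes called was 0.0207% for Hdac2-null against wild type, 0.0103% for Hopx-null against wild type and 0.031% for double-null against wild type. It was 0.0103% for double-null against Hdac2-null, 0.0207% for double-null against Hopx-null, and 0 for the interaction of the 2 losses. With 6 arrays against 6 it was 0.0207% for the loss of Hdac2 and 0.0103% for the loss of Hopx. A count of 0 in 22 genes is therefore near the background and is no result about these genes. At an unadjusted p of 0.05, 0 of the 22 were past it in the first 6 of these comparisons, beside 5.11%, 2.65%, 7.31%, 11.3%, 8.13% and 4.18% of all genes in the same order. There were 2 for the loss of Hdac2 (Oasl2 and Rsad2, both lower; 8.96% of all genes, 5.27% lower) and 1 for the loss of Hopx (Gbp3, higher; 8.73% of all genes, 4.71% higher).

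Among the transcription factors, Irf9 and Irf1 were tested, and Irf7 and Stat2 were below the floor on all arrays, at no more than 4.42 and 24.8 units. Irf9, the DNA-binding subunit of ISGF3, read 1148, 903.7 and 421.4 units in wild type, 576.8, 312.3 and 616.1 in Hdac2-null, 813.7, 786.5 and 1167 in Hopx-null and 665.7, 879.6 and 577.6 in double-null ventricles. Its lowest arrays were Hdac2-null 2 and wild type 3, and each null genotype overlapped wild type. The Hdac2-null difference from wild type was -0.66 (SE 0.37, adjusted p 0.925 from limma). Over both genotypes without Hdac2 it was -0.52 (SE 0.26, adjusted p 0.592). Irf1, which drives interferon gamma targets, read 118.5, 190.3 and 117.6 in wild type, 76.99, 138.2 and 104.6 in Hdac2-null, 115.3, 142 and 123.4 in Hopx-null and 115, 110.8 and 109.6 in double-null. All 3 double-null arrays were below every wild type and every Hopx-null array. The differences were -0.31 (SE 0.21, adjusted p 0.751) and -0.18 (SE 0.21, adjusted p 0.831), so neither passed the test.

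**Figure D1:**
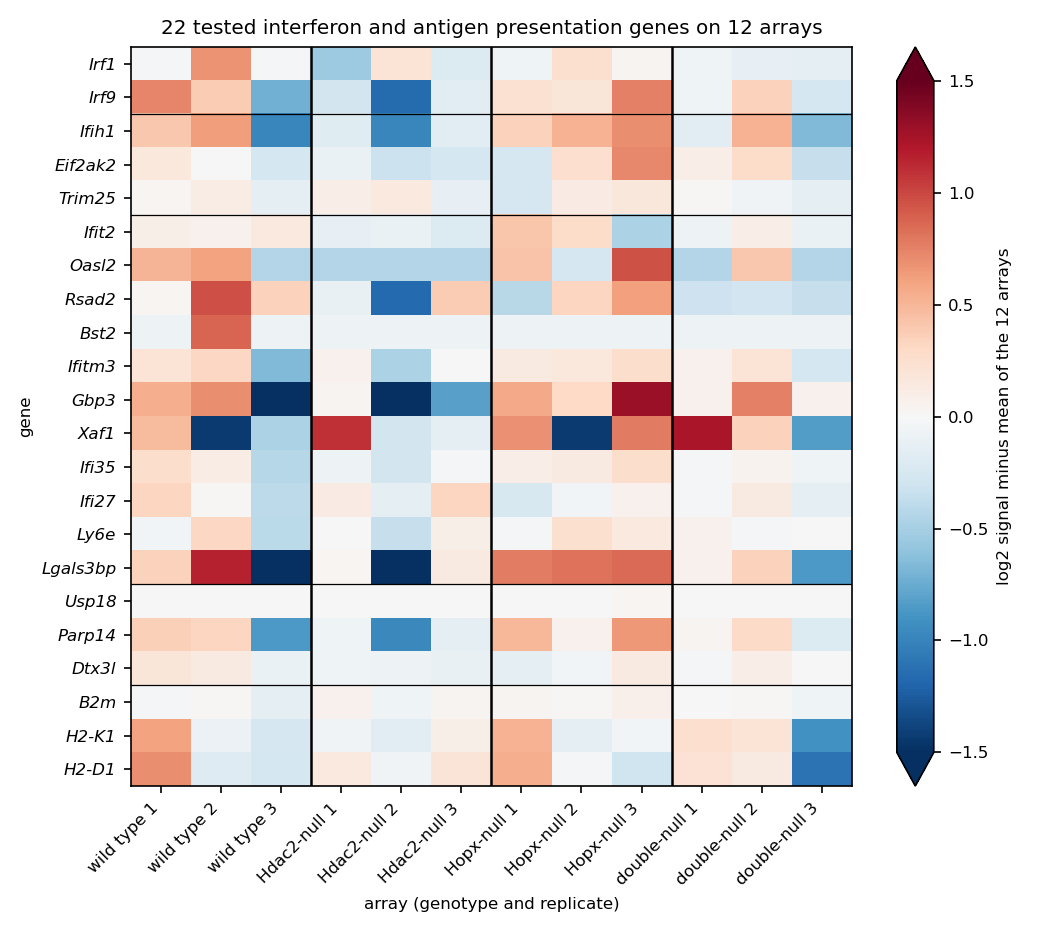
Each cell is the log2 signal of 1 gene on 1 array minus that gene's mean over the 12 arrays, with values under the floor raised to it; rows are the 22 tested genes in order of role and thick lines part the genotypes. Blue columns stand out at wild type 3, Hdac2-null 2 and double-null 3, where the median deviations were -0.32, -0.28 and -0.18.

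Of the RNA sensors and their partners, Ifih1, Eif2ak2 and Trim25 were tested. Ifih1, the sensor MDA5 of long double-stranded RNA, read 213.6, 251.6 and 47.17 units in wild type, 143.3, 29.82 and 144.7 in Hdac2-null, 207.6, 232.6 and 263.8 in Hopx-null and 145.2, 232.6 and 102.9 in double-null. Wild type 3 and Hdac2-null 2 were the 2 arrays below the floor, and the 3 Hopx-null arrays were the most alike. Double-null differed from Hopx-null by -0.62 (SE 0.41, adjusted p 0.712 from limma). Eif2ak2, the kinase PKR that halts translation on double-stranded RNA, ranged from 314.4 to 652 units, the lowest in double-null 3 and the highest in Hopx-null 3. Trim25, a ubiquitin ligase that helps the sensor RIG-I, ranged from 2508 to 3365 units, with both ends in Hopx-null. Zbp1, a sensor of Z-form nucleic acid, was at most 4.5 units, far below the floor.

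Among the antiviral effectors Gbp3, a guanylate-binding GTPase, read 405.2, 451.1 and 19.81 units in wild type, 286.4, 27.34 and 158.1 in Hdac2-null, 413.3, 342.2 and 685.3 in Hopx-null and 290.1, 467.3 and 292.1 in double-null. Wild type 3 and Hdac2-null 2 were below the floor while the other arrays of their genotypes were above it, so that wild type arrays differed at least 5.47-fold and Hdac2-null arrays at least 3.47-fold. The double-null arrays were all above the Hdac2-null arrays, by 1.14 (SE 0.62, adjusted p 0.524 from limma), and did not overlap them. In the arrays without Hopx the mean was 415.1 ± 150 (SD, n = 6) against 224.6 ± 186 (SD, n = 6) with Hopx, a difference of 1.02 (SE 0.44, unadjusted p 0.0418, adjusted p 0.562). Each of the 6 arrays without Hopx was above the mean of those with it, but the highest array with Hopx exceeded 4 of them. Gbp2, a related GTPase, was below the floor on all arrays, at most 32.4 units.

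Oasl2, an oligoadenylate synthetase-like protein, read 159.4, 169.1 and 6.314 units in wild type, 80.32, 4.588 and 37.45 in Hdac2-null, 150.6, 93.85 and 215.5 in Hopx-null and 80.77, 148.9 and 15.87 in double-null. It was above the floor on 6 arrays, of which 5 carried Hdac2, and on no Hdac2-null array. Without Hdac2 the mean was 61.32 ± 53.4 (SD, n = 6) against 132.5 ± 73.1 (SD, n = 6), and the log2 difference, on floored values, was -0.60 (SE 0.24, unadjusted p 0.0328, adjusted p 0.534). Oas1a, the synthetase proper, was at most 7.39 units on all arrays.

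Rsad2, which makes the antiviral protein viperin, read 1360, 2616 and 1685 units in wild type, 1236, 591.9 and 1739 in Hdac2-null, 1001, 1668 and 2034 in Hopx-null and 1078, 1094 and 1057 in double-null. The 3 double-null arrays were nearly alike and below all wild type arrays, and wild type 3 was not low for this gene. The double-null difference from wild type was -0.76 (SE 0.38, adjusted p 0.673 from limma). Without Hdac2 the mean was 1133 ± 369 (SD, n = 6) against 1727 ± 557 (SD, n = 6), a difference of -0.61 (SE 0.27, unadjusted p 0.043, adjusted p 0.541), with 5 of 6 arrays lower than the mean with Hdac2. A second probe set for Rsad2 was lowest in Hdac2-null 2, at 56.2 units, and highest in wild type 2, at 438.6 units, the same 2 arrays as the first. On this second probe set double-null, at 77.4, 105 and 86.88 units, overlapped wild type, as wild type 1 read 81.33 units.

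Of the Ifit genes, which bind viral RNA, Ifit2 was tested and Ifit1 and Ifit3 were not. Ifit2 read 1577, 1555 and 1644 units in wild type, 1365, 1390 and 1290 in Hdac2-null, 1988, 1785 and 1065 in Hopx-null and 1408, 1588 and 1382 in double-null. Its 3 Hdac2-null arrays lay below its 3 wild type arrays, a difference of -0.24 (SE 0.18, adjusted p 0.925 from limma); 5.69% of all genes were lower without overlap in this comparison. Ifit1 was at most 74.3 units and Ifit3 at most 10.5 units, so no fold is given for either. Mx1 and Mx2, GTPases that block virus replication, were at most 5.15 and 4.26 units.

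Ifitm3, Bst2 and Ly6e are membrane proteins. Ifitm3, which blocks virus entry, read 11266, 12220 and 6243 units in wild type, 10349, 7045 and 9784 in Hdac2-null, 10812, 11010 and 11783 in Hopx-null and 10245, 11363 and 8242 in double-null. Its 3 lowest arrays were wild type 3, Hdac2-null 2 and double-null 3. Bst2, the tether that holds virus particles at the cell surface, was above the floor on 1 array, wild type 2, at 159.5 units. Its 11 other arrays were between 12.42 and 73.92 units, so the fitted difference of -0.32 from wild type in each of the 3 null genotypes rests on wild type 2. Ly6e, a GPI-anchored protein, ranged from 5201 units in wild type 3 to 8522 units in wild type 2.

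**Figure D2:**
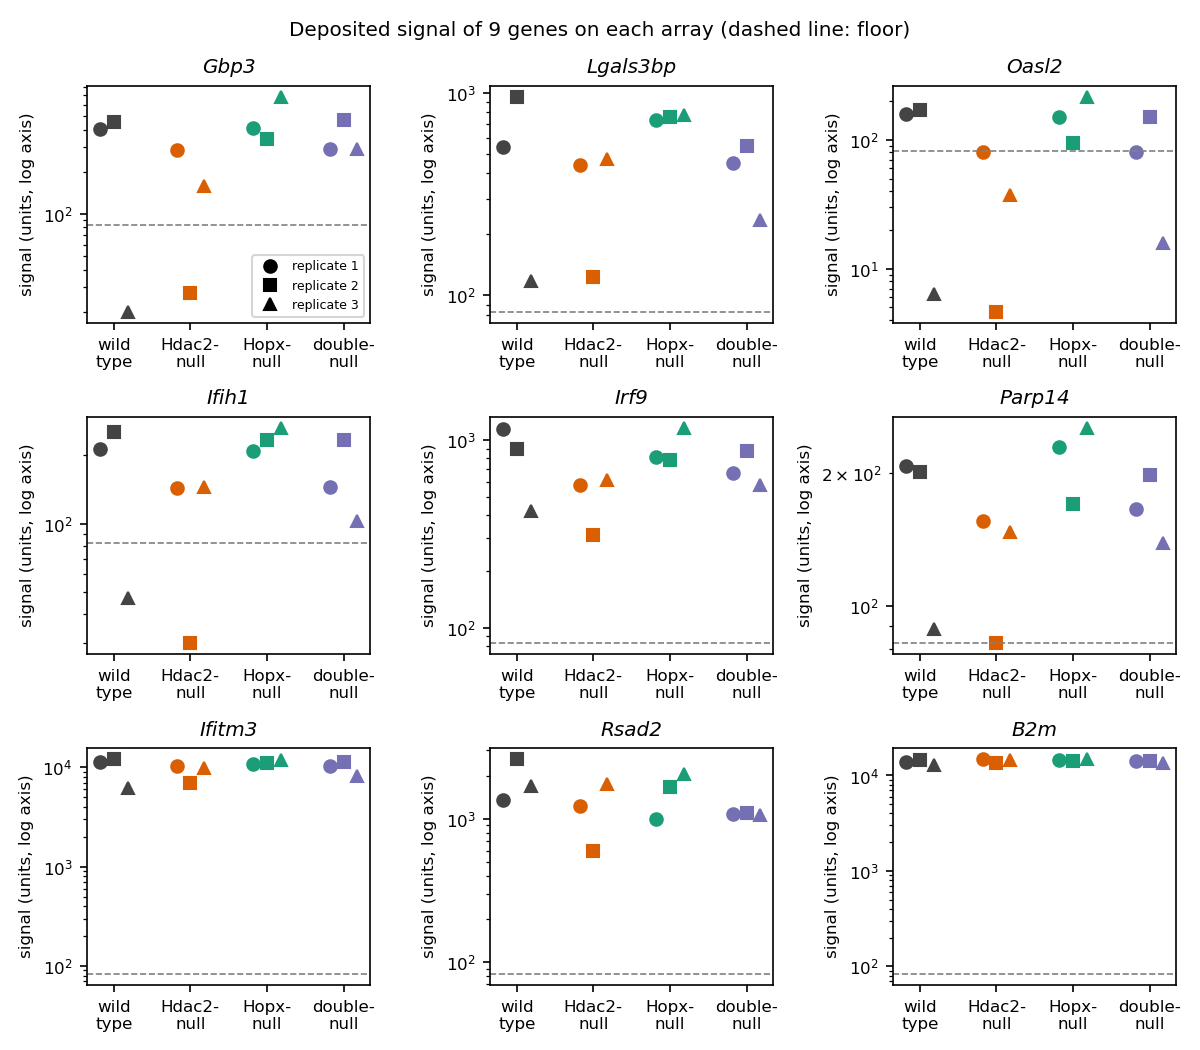
Each panel shows the deposited signal of 1 gene on a log axis against genotype, with 1 point per array, a shape per replicate number and a dashed line at the floor of 82.5 units. Wild type 3 and Hdac2-null 2 lie below their genotype's other arrays for Gbp3, Lgals3bp, Oasl2, Ifih1, Irf9, Parp14, Ifitm3 and B2m, and for Rsad2 only Hdac2-null 2 does.

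Lgals3bp, a secreted glycoprotein induced by interferon, read 542.6, 955 and 117.4 units in wild type, 438.3, 123.5 and 468.5 in Hdac2-null, 731.9, 757.6 and 773.9 in Hopx-null and 449.3, 548.4 and 236.4 in double-null. The wild type arrays differed 8.14-fold and the Hopx-null arrays 1.06-fold. All 3 double-null arrays lay below the Hopx-null arrays, with means of 411.4 ± 159 (SD, n = 3) and 754.4 ± 21.2 (SD, n = 3) and a difference of -0.96 (SE 0.71, adjusted p 0.731 from limma). The large error comes with the spread within wild type and Hdac2-null, which the fit shares across genotypes. Ifi35, an interferon-induced leucine zipper protein, ranged from 4397 units in wild type 3 to 7115 in wild type 1, and its double-null arrays also lay below its Hopx-null arrays. On another Ifi35 probe set these genotypes overlapped, at 283, 276.7 and 223.4 units in double-null and 220.5, 259.9 and 276.4 in Hopx-null. Ifi27, a mitochondrial interferon-induced protein, ranged from 1026 units in wild type 3 to 1674 in Hdac2-null 3.

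Xaf1, a partner of the apoptosis inhibitor XIAP, was measured by 2 probe sets that did not give the same order of arrays. The one used read 312, 59.42 and 160.9 units in wild type, 474.4, 183.2 and 201.7 in Hdac2-null, 360.8, 38.02 and 383.4 in Hopx-null and 521.5, 283.5 and 124.5 in double-null. The other read 514.6, 1010 and 4.599 in wild type, 4.591, 4.554 and 151.5 in Hdac2-null, 359.8, 984.3 and 533.4 in Hopx-null and 4.612, 491.6 and 211.6 in double-null. Wild type 2 and Hopx-null 2 were the 2 highest arrays on the second probe set and the 2 lowest on the first. The Hdac2-null difference from wild type was 0.69 (SE 0.72, adjusted p 0.928 from limma) on the first, and -0.55 with the mean of both, so no direction is given for Xaf1.

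Of the regulators of the response, Dtx3l varied less between arrays than Parp14 on the probe sets used. Dtx3l, a ubiquitin ligase that partners the ADP-ribosyltransferase Parp9, read 4312, 4218 and 3572 units in wild type, 3661, 3608 and 3538 in Hdac2-null, 3482, 3713 and 4201 in Hopx-null and 3764, 4083 and 3778 in double-null. The double-null arrays were above the Hdac2-null arrays by 0.10 (SE 0.08, adjusted p 0.667 from limma), without overlap. On another Dtx3l probe set these genotypes overlapped, at 805.1, 806.1 and 782.9 units in double-null and 858.6, 800.6 and 795.7 in Hdac2-null. Wild type arrays differed 1.88-fold on that probe set and 1.21-fold on the one used. Parp14, an ADP-ribosyltransferase, read 207.1, 200.8 and 88.87 in wild type, 155.3, 82.32 and 147.2 in Hdac2-null, 228.6, 169.6 and 252.7 in Hopx-null and 165.5, 197.8 and 139 in double-null. It was lowest in the arrays that were low for Gbp3, wild type 3 and Hdac2-null 2. Usp18, which removes Isg15 from proteins and damps the receptor, was above the floor on 1 array, Hopx-null 3, at 84.45 units.

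Of the antigen presentation genes on the list, B2m, H2-K1 and H2-D1 were tested. Psmb8 and Psmb9, subunits of the immunoproteasome, and Tap1, of the peptide transporter, were at most 5.87, 4.6 and 7.28 units. Psmb10, an immunoproteasome subunit outside the list, was above the floor on all 12 arrays, from 2095 units in double-null 3 to 2940 in Hopx-null 1. B2m, the light chain of MHC class I, read 13940, 14368 and 12837 units in wild type, 14781, 13515 and 14578 in Hdac2-null, 14492, 14322 and 14961 in Hopx-null and 14282, 14294 and 13454 in double-null. The log2 residual SD of B2m, 0.06, was the smallest of the tested genes of the list after Usp18, whose values were nearly all at the floor. Its double-null arrays lay below its Hopx-null arrays, a difference of -0.06 (SE 0.05, adjusted p 0.764 from limma). On another B2m probe set these genotypes overlapped, at 6884, 6927 and 6081 units in double-null and 6735, 7101 and 7114 in Hopx-null. H2-K1, a class I heavy chain, read 586.6, 362.7 and 324.3 in wild type, 374.1, 345.6 and 410.5 in Hdac2-null, 555, 347.7 and 376.5 in Hopx-null and 459.4, 443.3 and 205.8 in double-null. H2-D1, another heavy chain, read 738.9, 398.3 and 379.5 in wild type, 501.3, 438.7 and 516 in Hdac2-null, 658.2, 444.1 and 367.8 in Hopx-null and 526.4, 497.8 and 210.2 in double-null. For both heavy chains wild type 1 was the highest array and double-null 3 the lowest. Over all 9667 genes tested, wild type 1 was the highest array for 1713 and double-null 3 the lowest for 1322, each the most of any array.

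The class I heavy chains are a family of near-identical genes, so a probe set can also catch a neighbour's transcript and these values are uncertain. The probe sets of H2-D1 did not give the same order of arrays. 2 further probe sets were seen at 314 and 290.5 units in wild type 2, 410.8 and 244.7 in Hopx-null 2, 298.7 and 110.1 in Hopx-null 3 and 131.4 and 71.22 in double-null 3. On the other 8 arrays they were at most 4.07 and 4.61 units. The 4 arrays came from 3 genotypes, and no Hdac2-null array was among them. Another H2-D1 probe set, below the floor on all arrays, was also highest on these 4, at 33.72, 69.81, 39.63 and 15.42 units in the same order. The cause of this shared pattern was not tested.

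**Figure D3:**
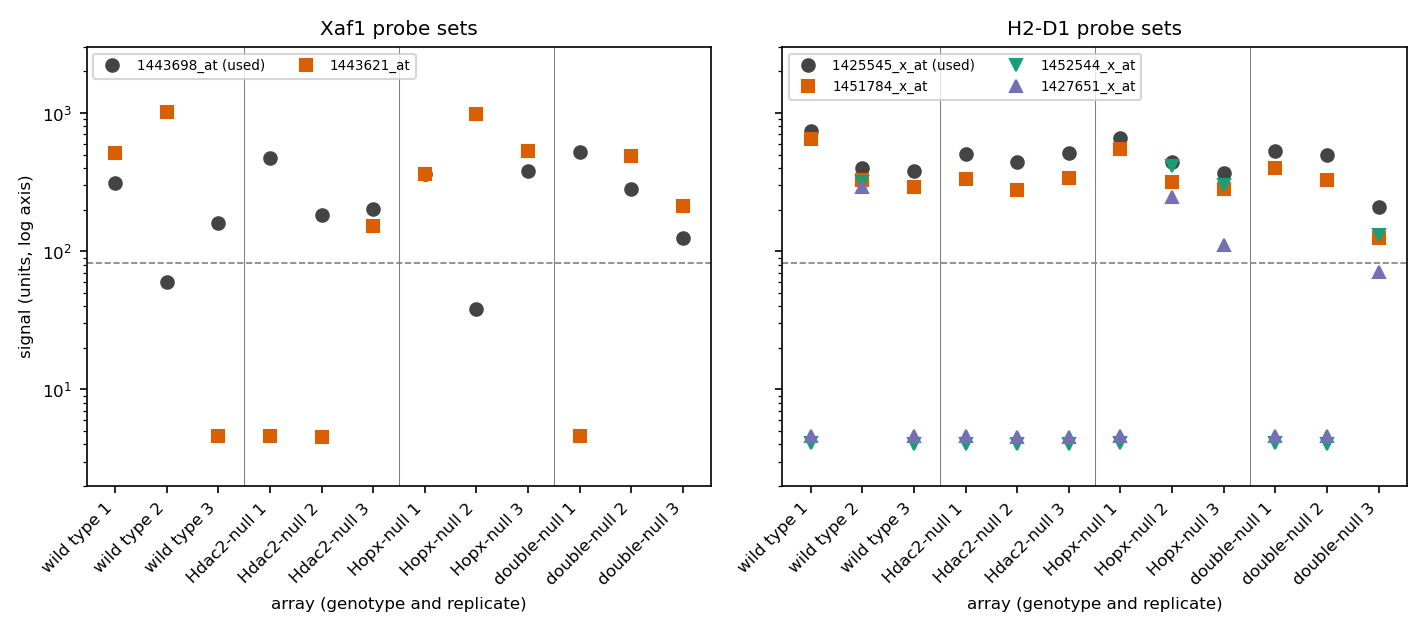
Deposited signals of the probe sets of Xaf1 (left) and of 4 probe sets of H2-D1 (right) on a log axis against array, with the floor as a dashed line. The second Xaf1 probe set read at most 4.612 units on 4 arrays, and 2 H2-D1 probe sets read at least 71.22 units on 4 arrays and at most 4.61 units on the other 8.

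In Hdac2-null against wild type 16 of the 22 were lower and 5 higher, with a median of -0.18, beside -0.01 and 55.1% lower over all genes tested. Hopx-null against wild type gave 15 higher and 7 lower, with a median of 0.12, beside 51.1% lower over all genes. Double-null against wild type gave 9 higher and 12 lower, with a median of -0.04, beside 54.4% lower over all genes. These 3 comparisons share the wild type arrays. Without wild type 3 the medians were -0.31, -0.04 and -0.28, in the same order, so the sign of the Hopx-null median rested on this 1 array. Without Hdac2-null 2 the Hdac2-null median was -0.05, without wild type 1 the Hopx-null median was 0.29, and without double-null 3 the double-null median was 0.06. Double-null against Hopx-null, which does not use wild type, gave 19 lower and 3 higher, with a median of -0.18 against -0.01 and 52.5% lower over all genes. Without double-null 3 this median was -0.06. In 4 of the 22 (Irf1, Ifi35, B2m and Lgals3bp) the double-null arrays lay below the Hopx-null arrays without overlap, beside 8.14% of all genes. On another probe set of Ifi35 and of B2m, above the floor on all arrays, these genotypes overlapped. Double-null against Hdac2-null had a median of 0.10, or 0.00 without Hdac2-null 2, with Gbp3 and Dtx3l higher without overlap, beside 12.9% of all genes. Another Dtx3l probe set did overlap in this comparison. Irf1 and Rsad2 were lower without overlap in double-null against wild type, beside 8.61% of all genes, but a second Rsad2 probe set overlapped. Ifit2 was lower without overlap in Hdac2-null against wild type, as given above. In the other directions 0 of the 22 were without overlap, beside 3.89% of all genes higher in Hdac2-null, 1.89% higher and 2.53% lower in Hopx-null and 6.31% higher in double-null, each against wild type. Between null genotypes this background was 12.7% lower in double-null than in Hdac2-null and 6.19% higher in double-null than in Hopx-null. For 6 against 6 arrays it was 0.341% higher and 0.269% lower without Hdac2, and 0.186% higher and 0.217% lower without Hopx, again with 0 of the 22. The interaction, which asks whether the double loss differs from the sum of the single losses, had a median of -0.05 and a smallest adjusted p of 0.942 (B2m, -0.12).

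The genes with the smallest p in each direction, called by none of the tests, give the size of difference that these arrays leave uncertain. In Hdac2-null against wild type these were Rsad2 at -0.75 (SE 0.38), Oasl2 at -0.66 (SE 0.34) and Dtx3l at -0.16 (SE 0.08) on the lower side. On the higher side they were B2m at 0.06 (SE 0.05), Xaf1 at 0.69 (SE 0.72) and Ifi27 at 0.12 (SE 0.18), and adjusted p from limma was at least 0.925 for all 6. The sign of Xaf1 turned with the mean of both its probe sets, that of Dtx3l with the mean of its probe sets and that of Ifi27 without wild type 3. In Hopx-null against wild type, where adjusted p was 1 for every listed gene, they were B2m at 0.09 (SE 0.05), Gbp3 at 0.89 (SE 0.62), Parp14 at 0.47 (SE 0.34), Bst2 at -0.32 (SE 0.20), Dtx3l at -0.09 (SE 0.08) and Rsad2 at -0.27 (SE 0.38). In double-null against wild type the higher side held Xaf1 at 0.72 (SE 0.72), Gbp3 at 0.46 (SE 0.62) and B2m at 0.03 (SE 0.05), and without wild type 3 Gbp3 was at -0.33 and B2m at -0.02.

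Against Hdac2-null, the double-null arrays were at 0.54 for Irf9 (SE 0.37) and 0.42 for Parp14 (SE 0.34), and at -0.35 for H2-D1 (SE 0.36), -0.10 for Trim25 (SE 0.12) and -0.11 for Ifi27 (SE 0.18). Against Hopx-null they were at -0.53 for Oasl2 (SE 0.34), 0.03 for Dtx3l (SE 0.08), 0.06 for Ifi27 (SE 0.18) and 0.23 for Xaf1 (SE 0.72). The smallest adjusted p from limma among these genes was 0.61 against Hdac2-null and 0.708 against Hopx-null. The interaction was 0.19 for Dtx3l (SE 0.12), 0.32 for Bst2 (SE 0.29), 0.21 for Irf1 (SE 0.30), -0.12 for Trim25 (SE 0.17) and -0.33 for H2-D1 (SE 0.52). Over both genotypes without Hdac2, Xaf1 was at 0.46 (SE 0.51), Ifi27 at 0.09 (SE 0.12) and B2m at 0.00 (SE 0.04). Over both without Hopx, Parp14 was at 0.45 (SE 0.24, adjusted p 0.616), Eif2ak2 at 0.26 (SE 0.16, adjusted p 0.685), Bst2 at -0.16 (SE 0.14), H2-D1 at -0.18 (SE 0.26) and Ifi27 at -0.08 (SE 0.12).

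**Figure D4:**
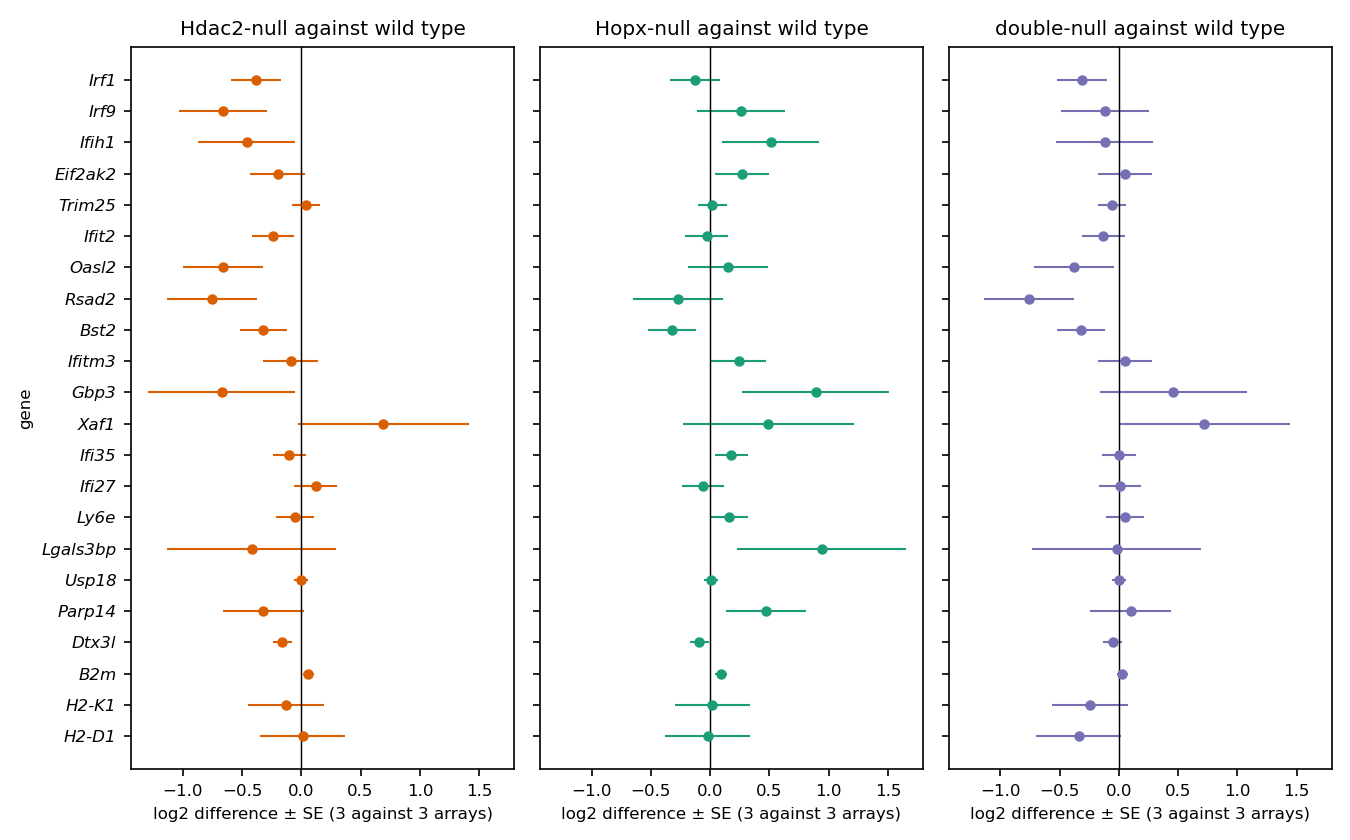
Points are log2 differences from wild type for the 22 tested genes and bars are standard errors from limma, with 3 against 3 arrays in each panel. The longest bars belong to Xaf1, Lgals3bp and Gbp3, and all adjusted p values were at least 0.673.

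The spread within genotypes was larger for these genes than for most. The median residual SD, the log2 spread of arrays about their genotype mean, was 0.32 for the 22 genes and 0.14 for all 9667, and 19 of the 22 were above the latter. The median standard error of a difference from wild type was 0.23 against 0.11. The list had 11 genes in the tenth of all tested genes with the highest residual SD. Xaf1 had the highest, 1.02, followed by Lgals3bp, Gbp3 with 0.88, Ifih1 with 0.58 and Rsad2 with 0.53.

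The arrays that were low were the same for many genes. Wild type 3 was the lowest of its genotype for 17 of the 22 (77.3%; 29.8% of all genes), Hdac2-null 2 for 15 (68.2%; 34.5% of all genes) and double-null 3 for 16 (72.7%; 43.4% of all genes). Hopx-null 3 was the highest of its genotype for 16 (72.7%; 24.1% of all genes). The median deviation of the 22 genes was 0.23, 0.23 and -0.32 on the wild type arrays, -0.05, -0.28 and -0.09 on the Hdac2-null, 0.12, 0.12 and 0.22 on the Hopx-null and 0.01, 0.13 and -0.18 on the double-null arrays. Over all genes tested it stayed within 0.03 of 0 on every array, but a median near 0 does not show that an array was ordinary gene by gene. Across all tested genes, the deviations of wild type 3 and Hdac2-null 2 from their group means correlated by 0.501. That was the highest value for any 2 arrays of different genotypes, so the likeness of these arrays was not limited to the listed genes. Genes on 1 array share that array's RNA, so these counts describe arrays and are not independent observations of a genotype.

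**Figure D5:**
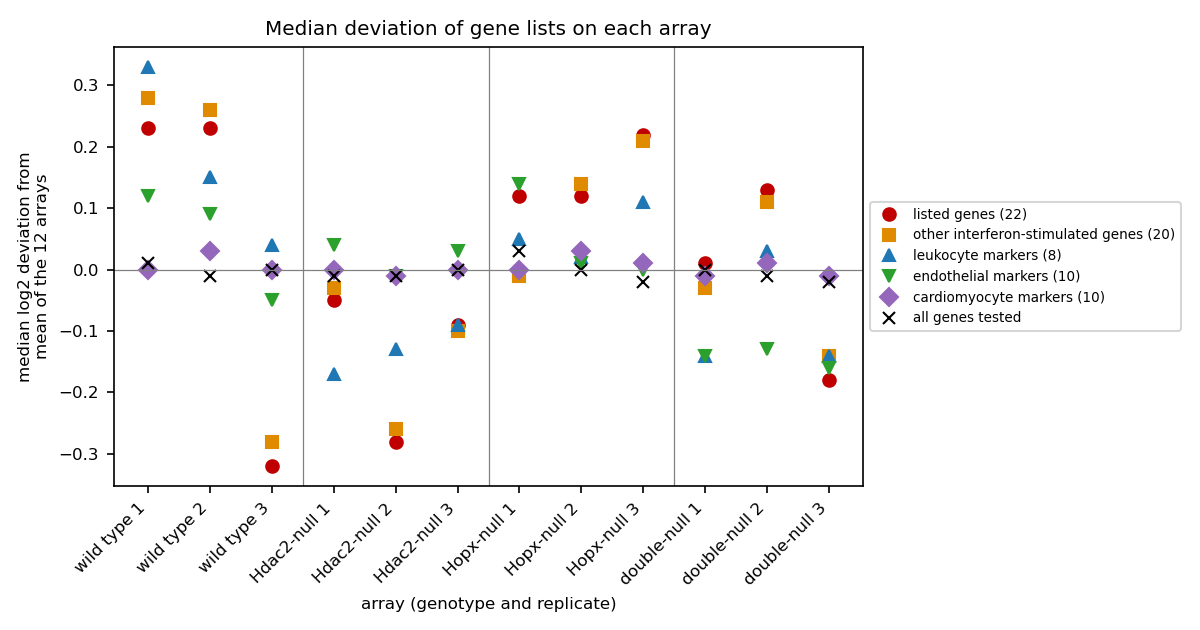
Points are the median log2 deviation from the 12-array mean of each gene list on each array. The listed genes and the other interferon-stimulated genes lie near -0.3 on wild type 3 and Hdac2-null 2, while the cardiomyocyte markers and all genes tested stay within 0.03 of 0.

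Interferon-stimulated genes outside the list were low on the same arrays. Of 41 such genes with a probe set 20 were tested and 0 were called in any of the 3 comparisons with wild type, and their median deviation was -0.28 on wild type 3 and -0.26 on Hdac2-null 2. The next 2 genes, Rtp4 and Trim30a, were picked after their values were seen. Rtp4, a chaperone for receptors, read 1045, 769 and 52.6 units in wild type and 552, 33.5 and 311 in Hdac2-null. Trim30a, a TRIM protein induced by interferon, read 1286, 1000 and 251 units in wild type and 740, 175 and 579 in Hdac2-null. Both gave their lowest wild type and Hdac2-null values on the arrays that were low for Gbp3. Irgm2, a GTPase of the same interferon gamma family as Irgm1, differed from wild type by -0.77 in Hdac2-null (SE 0.27, adjusted p 0.893 from limma) and by -0.77 in double-null (SE 0.27, adjusted p 0.657). All Hdac2-null and double-null arrays were below the floor for Irgm2, so both values are the same by the floor. They rest on wild type 1 and 2, at 208 and 161 units, while wild type 3 read 28.3 units. Ifitm2, a relative of Ifitm3, was at 0.11 in Hdac2-null (SE 0.05, adjusted p 0.925), Irgm1 at 0.57 in Hopx-null (SE 0.30, adjusted p 1) and Ifitm1 at -0.42 in double-null (SE 0.22, adjusted p 0.674). In Hopx-null Irgm2 was at -0.53 (SE 0.27, adjusted p 1). Of 20 interferon receptor and signalling genes with a probe set 15 were tested and 0 called, with array medians between -0.05 and 0.09. Ifngr2, a chain of the interferon gamma receptor, had means of 641.5 ± 31.4 units in double-null and 1315 ± 304 in wild type (SD, n = 3 each), a difference of -1.01 (SE 0.30, adjusted p 0.612). Ifnar2, a chain of the type I receptor, was at -0.38 in Hdac2-null (SE 0.17, adjusted p 0.925) and -0.32 in Hopx-null (SE 0.17, adjusted p 1). Irf2, which opposes Irf1, was at -0.15 in Hdac2-null (SE 0.08), Ifnar1 at -0.17 in Hopx-null (SE 0.15) and Irf5 at -0.12 in double-null (SE 0.09).

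Of 15 sensors and adaptors 9 were tested and 0 called, and all 9 were lower in Hdac2-null than in wild type, with a median of -0.19, beside 55.1% lower over all genes. Hdac2-null 2 was the lowest of its genotype for 7 of the 9, with an array median of -0.36 against -0.12 and -0.04 on Hdac2-null 1 and 3. Among them Adar, which edits double-stranded RNA, was at -0.22 (SE 0.11) and Mavs, the adaptor of the RNA sensors, at -0.30 (SE 0.16), both with adjusted p 0.925 from limma. Tlr3, an endosomal RNA sensor, was at 0.29 in Hopx-null (SE 0.19). Tbk1, the kinase that activates Irf3, was at 0.10 in Hopx-null (SE 0.08) and 0.22 in double-null (SE 0.08, adjusted p 0.657), and Myd88 at 0.12 in double-null (SE 0.07). Of 18 other antigen presentation genes 8 were tested and 0 called. Erap1, which trims peptides for class I, was at -0.26 in Hdac2-null (SE 0.12), and Cd1d1, which presents lipids, at -0.21 in Hdac2-null (SE 0.15) and 0.34 in double-null (SE 0.15, adjusted p 0.671). The chaperones Calr and Canx were at -0.10 and -0.04 in Hopx-null, and Psme1, of the proteasome activator, at -0.18 in double-null (SE 0.09). The MHC class II genes H2-Aa, H2-Ab1 and H2-Eb1, the invariant chain Cd74, the class II regulator Ciita and the transporter Tap2 were below the floor on all arrays. The 14 constitutive proteasome genes were all tested and 0 called, with Psmb2, a subunit of the core, at -0.42 in double-null (SE 0.13, adjusted p 0.621) and Psma4 at -0.23 (SE 0.09). Psmb5 was at 0.32 (SE 0.16) and Psma2 at 0.10 (SE 0.06) in Hdac2-null, and Psma1 at 0.15 (SE 0.06) and Psmb1 at 0.11 (SE 0.05) in Hopx-null.

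Markers of other cell types differed between arrays too. Of 17 leukocyte and macrophage markers 8 were above the floor, and Ptprc, Cd68, Adgre1, Aif1, C1qa, C1qc, Cd14, Itgam and Cx3cr1 were below it on all arrays, as were all 9 lymphoid markers. The summed signal of the 17 ranged from 17287 to 23650 units in wild type, 15511 to 17735 in Hdac2-null, 18877 to 20876 in Hopx-null and 16154 to 18350 in double-null, with wild type 3 and Hdac2-null 2 at the lowest value of their genotypes. C1qb, a complement gene of macrophages, made up much of that sum, at 6675 units on wild type 3 and 5857 on Hdac2-null 2. By the median deviation of the 8 markers the order was another, with 0.04 on wild type 3 and, in Hdac2-null, -0.17, -0.13 and -0.09 on arrays 1, 2 and 3. Against wild type, 7 of the 8 were lower in Hdac2-null (median -0.27), 6 in Hopx-null (median -0.13) and 8 in double-null (median -0.24). Over all genes 55.1%, 51.1% and 54.4% were lower, in the same order, and 0 of the 8 were called. Csf1r, the receptor that macrophages depend on, was at -0.24 in Hdac2-null (SE 0.07, adjusted p 0.892 from limma). It was at -0.16 in Hopx-null (SE 0.07) and -0.27 in double-null (SE 0.07, adjusted p 0.594 from limma). Tyrobp was at -0.28 in Hdac2-null (SE 0.10) and Fcer1g at -0.32 in double-null (SE 0.15), both signalling adaptors of myeloid cells. Lyz2, a lysozyme gene, was at -0.66 in Hopx-null (SE 0.40). All 10 endothelial markers were above the floor, with a summed signal of 16922 to 19484 units in wild type, 18183 to 18566 in Hdac2-null, 17113 to 18243 in Hopx-null and 16257 to 16767 in double-null. Wild type 3 was the lowest of its genotype for 9 of the 10 and Hdac2-null 2 for 5. In Hdac2-null 4 of the 10 were higher and 6 lower, with a median of -0.03, beside 55.1% lower over all genes. Emcn was at 0.28 in Hdac2-null (SE 0.10, adjusted p 0.893 from limma) and Esam at -0.24 (SE 0.25). In double-null all 10 were lower, with a median of -0.23, beside 54.4% lower over all genes. Pecam1 was at -0.47 (SE 0.20) and Kdr at -0.30 (SE 0.15) in double-null. Of 8 fibroblast markers, Hdac2-null 2 was the lowest of its genotype for 7 and wild type 3 for 1, and Col3a1 was at -0.11 in Hdac2-null (SE 0.03, adjusted p 0.893). Of the erythroid markers Hbb-y, an embryonic globin, read 1209, 985 and 219 units in Hdac2-null and at most 123 in wild type, a difference of 2.76 (SE 0.69, adjusted p 0.892 from limma). Hbb-y read 427, 4.89 and 5.69 units in Hopx-null and 47.4, 16.2 and 64.7 in double-null, which also lacks Hdac2. Of the liver markers Alb and Afp were above the floor on 1 array, Hdac2-null 3, at 176 and 205 units. The other tested liver marker, Ttr, exceeded the floor on 3 arrays. Its signal there was 110 and 188 units in Hdac2-null (arrays 2 and 3), and 105 units in Hopx-null (array 1). In whole ventricle, fewer cells of a type and less RNA per cell cannot be told apart, and the part of these markers in the spread of the listed genes was not tested. Xist, the RNA of the inactive X chromosome, was at most 22.2 units on 7 arrays, among them wild type 3, Hdac2-null 2 and double-null 3 but also Hopx-null 2 and Hopx-null 3. It was at least 4988 units on the other 5. With Xist as a covariate the median of the 22 genes in Hdac2-null against wild type was -0.13.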

How the data were processed

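Total RNA from the ventricles was converted to biotinylated cRNA and hybridised to Affymetrix arrays, per the labels' protocols. The authors deposited one linear intensity per probe set and array; MAS5 is named in the submitters' processing notes, and further steps are not given in the sources used here. Of the deposited values 48.6% lie within 1 unit of 4.5, so the method that made the values, and what a reading below the floor means, was not settled. Of 45101 probe sets, 64 controls were left out. Intensities were raised to a floor of 82.5 units (0.1 of the mean trimmed mean) and put on the log2 scale, so differences of dim genes are understated. Of 45037 probe sets, 34945 had 1 gene symbol, 932 had several and 9160 none. They gave 18193 genes, of which 12433 passed the 40th percentile of mean signal (4.76 units); 2766 of those, at the floor on all arrays, were left out and 9667 were tested.

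All 12 arrays entered 1 fit with limma 3.58.1 in R 4.3.3 (trended variance, 8 residual degrees of freedom, Benjamini-Hochberg adjustment, 8 comparisons), checked on simulated data. Every member with a probe set of 1 gene is named, with its test where its p was among the 3 smallest in a direction of a comparison; of the other pathway lists the 2 genes with the smallest p against wild type are named, and of the cell marker lists some of them. The members and lists were chosen with earlier results of these data known. Deviations from group means were correlated between arrays, and numbers were taken to pair where all same-numbered correlations of 2 genotypes were above 0.1. They were 0.15 to 0.42 between wild type and Hopx-null and 0.12 to 0.21 between Hdac2-null and Hopx-null, so these numbers pair by that check alone. The other pairs of genotypes did not meet it. Hdac2-null with double-null missed it narrowly, at 0.251, 0.096 and 0.254. Hopx-null with double-null gave 0.288, -0.115 and 0.216. Wild type gave -0.25 to 0.33 with Hdac2-null and -0.25 to 0.12 with double-null. No 2 arrays held identical values. As a check of RNA quality, the log2 ratio of the 3′ to the 5′ control probe set of Gapdh was 1.33 on wild type 1. It was between 0.84 and 1.07 on the other arrays. For Actb the ratio was between 2.63 and 2.80 on all arrays. Alternatives covered the floor, filter, normalisation, probe set rule, weights, block and left-out arrays.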

Additional observations from a re-analysis of the deposited data

How the results depend on the processing

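No listed gene was called in any of 8 comparisons under any of 23 other settings, and the smallest adjusted p was 0.105 (Dtx3l, 0.14, double-null against Hdac2-null, limma with array weights). Of 1074 values of named members under these settings, 27 took the other sign and 1047 did not. Values were rounded first, and one left without a sign was counted among the 1047. The cause of the changes was not tested.

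Genes called overall moved in some settings. With no floor they were 4 in Hdac2-null and 2 in Hopx-null against wild type, 1 in double-null against Hopx-null and 2 for the loss of Hopx. With the mean of all probe sets they were 1 in Hdac2-null against wild type and 1 in double-null against Hopx-null, which also had 1 with a doubled floor, 1 with only its own groups and 5 without wild type 1 and Hopx-null 1. Array weights gave 951 in double-null against Hdac2-null and 5 for the loss of Hdac2. With the replicate number as a block, double-null against Hopx-null had 1 call and no member's call changed.

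Leaving out 1 array gave 2 to 4 calls in Hdac2-null, 2 to 8 in double-null against wild type (8 without wild type 3), 1 to 3 in double-null against Hopx-null, 0 to 1 for the interaction, 2 to 27 for the loss of Hdac2 (27 without wild type 3) and 1 to 2 for the loss of Hopx. The members' median ran from -0.28 to 0.06 in double-null against wild type and from -0.17 to 0.17 for the interaction, with -0.28 and 0.17 both without wild type 3.

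Single genes changed sign. The mean of all probe sets put Xaf1 at -0.55 in Hdac2-null and -0.03 in double-null against wild type, -0.63 in double-null against Hopx-null and -0.59 for the loss of Hdac2, Dtx3l at 0.02 in Hdac2-null and H2-D1 at 0.01 for the loss of Hopx. With no floor Bst2 was at -0.44 for the interaction. Array weights put H2-D1 at 0.02 and Ifi27 at 0.01 for the loss of Hopx. Without wild type 1 and Hopx-null 1, Dtx3l was at 0.02 in Hopx-null against wild type and -0.03 in double-null against Hopx-null, and Ifi27 at -0.02 there and 0.04 for the loss of Hopx. Leaving out 1 array ran Ifi27 from -0.07 to 0.28 in Hdac2-null against wild type, Rsad2 from -0.49 to 0.02 in Hopx-null, B2m from -0.02 to 0.07 and Gbp3 from -0.33 to 0.90 in double-null against wild type. It ran H2-D1 from -0.58 to 0.08 in double-null against Hdac2-null, and Xaf1 from -0.49 to 0.77, Dtx3l from -0.03 to 0.11 and Ifi27 from -0.02 to 0.13 in double-null against Hopx-null. For the interaction Irf1 ran from -0.02 to 0.40 and H2-D1 from -0.64 to 0.10, and for the loss of Hopx H2-D1 ran from -0.30 to 0.03.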
